A study of Mus musculus with 2 samples.

Results

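The genes described here encode the protein components of the cytosolic ribosome. They were chosen by name and annotation alone, as protein-coding genes of GENCODE M21 called Rpl or Rps with a number, with Rplp0, Rplp1, Rplp2 and Rpsa added. The rule found 83 of the 55536 annotated genes (83 of 22028 protein-coding genes), of which 51 belong to the large and 32 to the small ribosomal subunit. They lay on 19 chromosomes and had coding sequences of 75 to 1257 bases, with a median of 456. No measured value entered the rule, but earlier results of these data were known when the genes were chosen.

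RNA was sequenced from the nucleoplasmic fraction of bone-marrow-derived macrophages of C57BL/6J mice that had received Lipid A at 100 ng/ml for 40 min. Lipid A is the part of bacterial lipopolysaccharide that the receptor TLR4 recognises. Both libraries, biological replicates 1 and 2, formed this single group after ribosomal RNA depletion. No untreated cells, other times or other fractions were analysed here, so the values below are levels and not responses. Both libraries carry the same donor identifier, so their spread may be technical. The RNA input was 1 µg in replicate 1, against 500 ng in replicate 2, and effects of this input cannot be told apart from those of the replicate. Age and sex were not recorded in the labels. The libraries held 19630046 expected counts (replicate 1) and 18434601 (replicate 2), in which reads shared between gene copies are divided by a model. Of 12 macrophage markers 12 were detected, with summed levels of 8000 and 5045 TPM. Neutrophil, B cell, NK cell, fibroblast and erythroid markers (0 of 22 detected) summed to at most 3.54 TPM per list. Of 6 T cell markers only Cd4 was detected, and of 3 endothelial markers only Kdr. In bulk RNA, fewer cells of a type and less RNA per cell cannot be told apart.

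Each ribosome is built from ribosomal RNA and a single copy of most of its proteins, so cells make the ribosomal proteins in matched amounts. The genes are short, split by introns and transcribed by RNA polymerase II from strong promoters, and many of their introns hold small nucleolar RNAs. Their mature messenger RNAs typically begin with a C and a run of pyrimidines, the 5′ terminal oligopyrimidine (TOP) motif, through which mTOR signalling controls their translation. In the cytoplasm of growing cells these messenger RNAs are among the most abundant. Retrotransposition of such messages has scattered many processed pseudogenes over mammalian genomes.

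Ribosomal protein genes were readily detected in the nucleoplasmic fraction, at moderate and, for most, rather even levels. Mitochondrially encoded messenger RNAs, which are made outside the nucleus, held 6.35% and 6.11% of the protein-coding expected counts in replicates 1 and 2. The part of cytoplasmic RNA in the levels below was not tested. At a threshold of 1 TPM (transcript abundance corrected for length and scaled to a fixed total per library) in both replicates, 80 of 83 were detected, against 40.0% of all protein-coding genes. A mean of at least 10 TPM was reached by 71 of 83, against 16.8% of all protein-coding genes. Their median was 29.7 TPM in replicate 1 and 22.3 TPM in replicate 2 (26.0 ± 5.27, SD, n = 2). The other 8730 detected protein-coding genes had medians of 8.52 and 6.01 TPM (7.26 ± 1.77). The gap between the medians was 1.69 ± 0.026 on the log2(TPM + 1) scale (SD, n = 2). By mean TPM, 76 of the 83 lay above the median of the other detected genes, 58 above their 75th percentile (18.7 TPM), 17 above their 90th percentile (45.5 TPM) and 0 above their 99th percentile (330 TPM).

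The short length of the genes meant that these levels rested on few reads. The median ribosomal protein gene had 330 and 324 expected counts, against 420 and 397 for the other detected genes. All 83 together summed to 32256 and 32343 expected counts, which was 0.226% and 0.242% of the protein-coding counts. Of the nuclear-encoded protein-coding TPM they made up 1.07% in replicate 1 and 1.21% in replicate 2. The authors' credibility interval, which covers counting and read assignment within a library, spanned a median of 26.1% and 27.6% of a gene's TPM.

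The 77 genes without the 6 paralogues named with a final l or l1 were spread narrowly. Their interquartile range was 1.02 on the log2(mean TPM + 1) scale, against 2.19 for the other detected protein-coding genes. The highest of the 77, Rpl10, lay 13.6-fold above the lowest, Rpl14. Large-subunit genes had medians of 30.5 and 21.9 TPM, against 28.8 and 23.4 TPM for small-subunit genes. The difference, -0.0083 ± 0.12 in log2(TPM + 1), was far smaller than its spread between replicates, and its sign turned when the paralogues were left out (0.038). Across the 77 genes, mean TPM showed little rank relation to coding length (Spearman rho 0.045), to exon number (0.0998) or to the number of pseudogene copies (0.0096). These correlations are over genes that share both libraries and are given as a description.

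**Figure D1:**
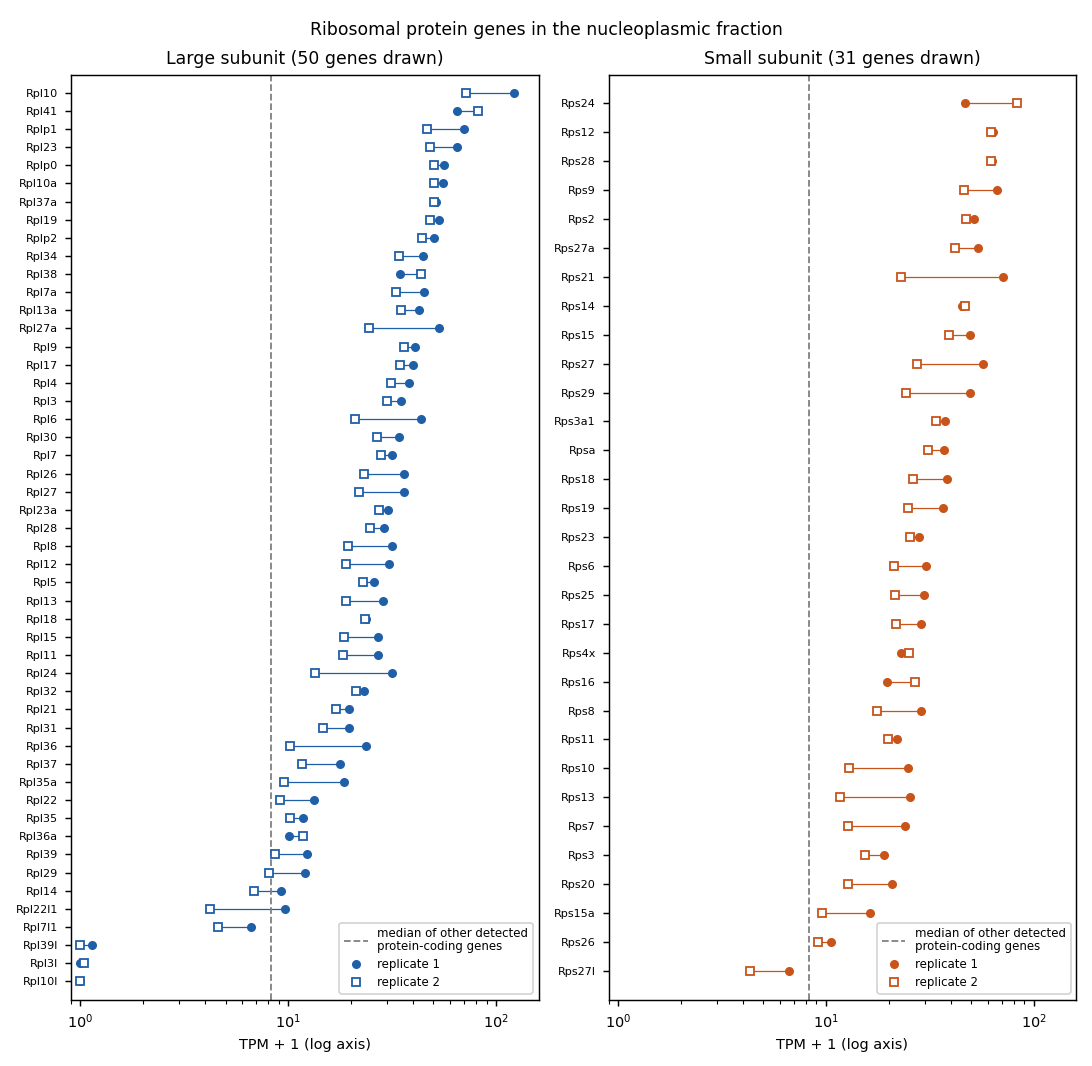
TPM + 1 (log axis) of 50 large-subunit and 31 small-subunit genes, ordered by mean level, with filled circles for replicate 1 and open squares for replicate 2. The dashed line marks the median of the 8730 other detected protein-coding genes. Most genes lie to its right, while the paralogues Rpl10l, Rpl3l and Rpl39l lie at the left edge.

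Among the large-subunit genes, Rpl10 (chrX:74270812-74273135, mm10), whose protein joins the subunit late in its maturation close to the catalytic centre, was highest. It had 121 TPM in replicate 1 and 71.0 TPM in replicate 2 (96.2 ± 35.7). Rpl41, which encodes the smallest ribosomal protein, had 64.1 and 80.9 TPM. Rpl23 had 63.6 and 47.1 TPM, and Rpl10a, a protein of the mobile L1 stalk, had 54.9 and 49.3 TPM. These 4 genes were among the 10 highest by mean level, and the replicates of Rpl10 stood further apart than the means of the other 3.

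The acidic stalk proteins recruit translation factors to the large subunit. Rplp1 had 69.5 and 45.5 TPM and Rplp0, which anchors the stalk, had 55.4 and 49.1 TPM. Rplp2 had 49.3 and 42.9 TPM. All 3 stalk genes lay above the 75th percentile of the 77 core genes in both libraries (45.5 and 34.96 TPM). Rpl5 and Rpl11, which form a particle with 5S ribosomal RNA and can bind Mdm2, were lower, with 24.7 and 21.9 TPM for Rpl5 and 25.9 and 17.4 TPM for Rpl11.

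Among the small-subunit genes, Rps24 (chr14:24487125-24496959) led by mean level, but with 45.5 TPM in replicate 1 and 81.9 TPM in replicate 2. Rps12 had 62.6 and 61.3 TPM, and Rps28 had 61.5 and 61.5 TPM, so that both agreed closely between libraries. Rps9 had 65.6 and 44.9 TPM. Rpsa, a small-subunit protein also known as the laminin receptor, had 35.9 and 29.9 TPM. Rps6, the substrate of S6 kinase, had 29.2 and 20.2 TPM. Rps3, which lines the messenger RNA entry channel, had 17.95 and 14.4 TPM.

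The lowest levels belonged to the paralogues and to a few core genes. Rpl14 had 8.21 and 5.89 TPM, Rps26 9.53 and 8.11 TPM, Rpl29 11.0 and 7.10 TPM, and Rpl39 11.4 and 7.67 TPM. Of these core genes, Rpl29 and Rpl39 have 61 and 18 pseudogene models with similar sequence, whose part in the levels was not tested beyond the read shares given further on.

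The 6 paralogues divided into 3 that were detected and 3 that were not. Rpl3l, known from heart and skeletal muscle, had 0 and 1 expected counts (0 and 0.04 TPM), against 34.0 and 29.0 TPM for Rpl3. Rpl10l, an autosomal gene active in the testis, had 0 expected counts in both libraries. The limit that 3 counts allow in a library was 0.171 and 0.132 TPM, so Rpl10l was at least 711-fold lower than Rpl10 in replicate 1 and at least 538-fold lower in replicate 2. With FASTQ-derived values on both sides the bounds were 574-fold and 545-fold. Rpl39l, another testis-enriched gene, had 1 and 0 expected counts, against 95 and 81 for Rpl39. The coding sequences of these pairs were 74.4% (Rpl3l), 84.7% (Rpl10l) and 85.5% (Rpl39l) identical over the aligned stretch.

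Rpl7l1, Rpl22l1 and Rps27l were detected. Rpl7l1, a relative of Rpl7, had 5.66 and 3.60 TPM, against 30.5 and 26.8 TPM for Rpl7 (log2 difference -2.42 ± 0.25, SD, n = 2). Rps27l, a p53 target gene, had 5.63 and 3.32 TPM, against 56.0 and 26.5 TPM for Rps27 (log2 difference -2.89 ± 0.31). As ratios of TPM + 1, these differences were 5.35-fold for Rpl7 and 7.39-fold for Rps27, which is less than the ratios of TPM itself. Rpl22l1 had 8.65 and 3.20 TPM, against 12.3 and 8.19 TPM for Rpl22 (log2 difference -0.79 ± 0.47). The credibility interval of Rpl22l1 ran between 7.58 and 53.1 TPM in replicate 1 and between 2.86 and 74.1 TPM in replicate 2. It covered the level of Rpl22 in both libraries, so this pair was not separated. By the deposited posterior mean TPM the order turned, with 23.7 and 27.3 for Rpl22l1, against 12.5 and 8.85 for Rpl22.

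Proteins of the same ribosome whose genes are named otherwise had like levels. The list of 4, which holds Fau, Rack1 and Rpl36al, had a median of 23.1 ± 3.50 TPM, and 4 of 4 were detected. Fau, which encodes a ubiquitin-like fusion of a small-subunit protein, averaged 68.4 ± 16.6 TPM and Rack1, a scaffold on the small subunit, 25.2 ± 7.64 TPM. Rpl36al, a copy of Rpl36a, averaged 9.58 ± 6.25 TPM, with 14.0 and 5.16 TPM in the replicates.

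Other messenger RNAs known for a TOP motif had a median of 22.7 ± 3.31 TPM, with 14 of 14 detected. Their range was wider than that of the 77 core ribosomal protein genes. The elongation factor gene Eef1a1 averaged 557 ± 16.4 TPM and Vim, which encodes vimentin, 414 ± 39.7 TPM. Eif3f averaged 5.26 ± 1.71 TPM and Eef1d 5.12 ± 1.18 TPM. The genes of the mitochondrial ribosome were lower, with a median of 1.99 ± 0.438 TPM and 55 of 78 detected. Among them Mrpl24 had 48.3 and 41.3 TPM and Mrpl52 24.0 and 14.9 TPM, while Mrpl55 and Mrpl35 stayed under 1 TPM in both libraries.

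Ribosome assembly factors and RNA polymerase I genes had a median of 5.04 ± 1.21 TPM, with 35 of 43 detected. Sbds, which helps release Eif6 from new large subunits, averaged 67.8 ± 24.3 TPM and Npm1, a nucleolar chaperone, 32.4 ± 0.46 TPM. Rpf2, a factor for the 5S particle, averaged 0.785 ± 0.233 TPM and Bysl, a factor of small-subunit assembly, 0.455 ± 0.0919 TPM. The regulators of ribosomal protein synthesis had a median of 8.53 ± 1.40 TPM, with 12 of 13 detected. Rptor, a subunit of the mTORC1 kinase complex, averaged 21.2 ± 1.03 TPM and Larp1, which binds TOP messages, 14.2 ± 4.70 TPM. The lowest were Tbp, the TATA-binding protein gene, with 3.22 ± 0.962 TPM, and Eif4ebp1, which encodes a translation repressor, with 0.925 ± 0.474 TPM.

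**Figure D2:**
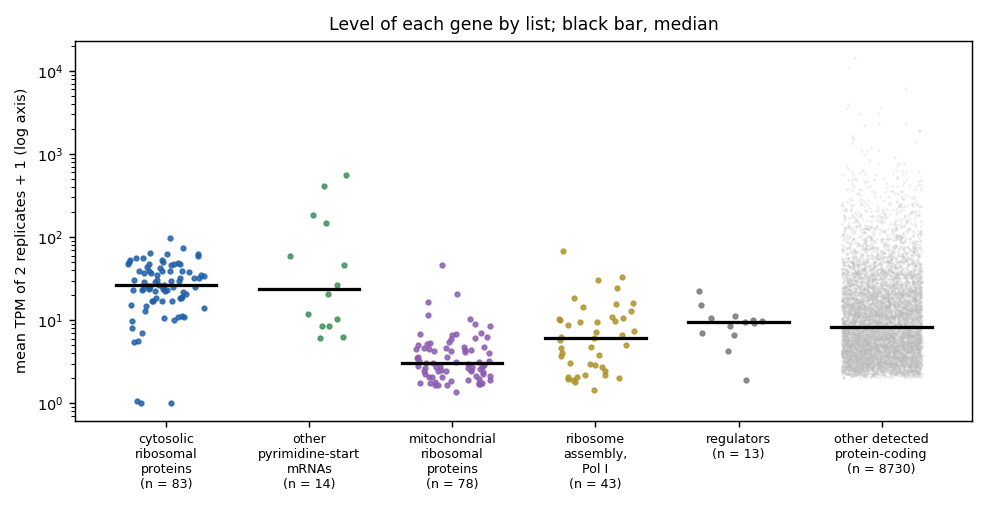
Mean TPM of both replicates + 1 (log axis) for every gene of 5 lists and for the 8730 other detected protein-coding genes, with a black bar at each median. The 83 cytosolic ribosomal protein genes have a median of 25.6 TPM and, apart from the 6 paralogues, a narrow spread. Most of the 78 mitochondrial ribosomal protein genes lie below that median.

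The annotated starts of the genes were read to see how many begin with the TOP motif. The windows below hold 20 bases before and 20 bases from the RefSeq start (GRCm38.p6), written 5′ to 3′, with the unbroken pyrimidine run that starts at the annotated first base in capitals. Rpl15, Rpl35, Rps10, Rps6 and Rps18 are shown for the longest runs. Rpl10 and Rps12 are shown as genes of high level whose annotated start has no such run.
Rpl15 (chr14:18270967-18271006, minus strand): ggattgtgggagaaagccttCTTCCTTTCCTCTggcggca
Rpl35 (chr2:39005112-39005151, minus strand): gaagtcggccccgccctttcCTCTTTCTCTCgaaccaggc
Rps10 (chr17:27635225-27635264, minus strand): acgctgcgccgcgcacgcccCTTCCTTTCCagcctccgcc
Rps6 (chr4:86857348-86857387, minus strand): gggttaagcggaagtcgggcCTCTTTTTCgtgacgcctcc
Rps18 (chr17:33955646-33955685, minus strand): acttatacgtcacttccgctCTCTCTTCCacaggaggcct
Rpl10 (chrX:74270796-74270835, plus strand): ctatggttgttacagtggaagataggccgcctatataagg
Rps12 (chr10:23787190-23787229, minus strand): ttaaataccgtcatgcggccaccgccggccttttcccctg
The Rps12 window holds its pyrimidine tract a few bases after the annotated start, so an annotated start shifted by a few bases would miss it. Rpl7a and Rpl27a have tracts of 21 and 20 pyrimidines across the annotated start, but its first base is a T, so they were not counted. The counts below are thus of exact annotated starts and not of all genes with a tract nearby. The RefSeq table matched 63 of 83 genes. Where a gene had several annotated starts, the longest run was taken. A C followed by at least 4 pyrimidines stood at the annotated start of 13 of 63 (20.6%), against 2.97% of 26962 other genes of the table. With at least 6 pyrimidines after the C, 10 of 63 (15.9%) matched, against 1.26% of the other genes. At the start of the most abundant protein-coding GENCODE M21 model, 9 of 83 (10.8%) had the run, against 2.31% of the other detected protein-coding genes. The levels of the 13 genes with a run at the RefSeq start lay between 46.1 ± 4.50 TPM for Rplp2 and 7.05 ± 1.64 TPM for Rpl14. The highest levels of the family, up to 96.2 TPM for Rpl10, lay above them.

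The window of 250 bases before and 50 bases after the RefSeq start was searched on both strands for 3 motifs, none of which contains another. A gene with several windows counted once if any of them held the motif. CCGGAAG, the core bound by ETS factors such as Gabpa, was present for 26 of 63 genes (41.3%). Of the 26962 other genes, detected or not, 9.85% had it. ATGGCGG, the core bound by Yy1, was present in 17.5%, against 4.66%. TATAAA was present in 11.1%, against 15.7%. These matches describe letters in the window and are not evidence of binding. Gabpa and Yy1 themselves averaged 8.27 ± 1.03 and 5.56 ± 1.78 TPM.

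Part of the ribosomal protein RNA was assigned to models in which an intron is kept. A retained-intron model was annotated for 64 of 83 genes (77.1%), against 65.0% of the other detected protein-coding genes. These models took 21.9% of the ribosomal protein TPM in replicate 1 and 18.8% in replicate 2 (20.3% ± 2.18, SD, n = 2). Other nuclear-encoded protein-coding genes gave 25% and 24.6% (24.8% ± 0.298). Per gene, the median over the 64 was 23.6% and 20.2%, against 26.7% and 25.3% over 5672 other detected genes with such a model. By share of expected counts the order turned, with 24.2% ± 0.834 for the ribosomal protein genes and 16.9% ± 0.317 for the others, so no direction can be given. The remaining ribosomal protein TPM went to protein-coding models (70.9% ± 1.71), processed transcripts (5.39% ± 0.0291) and nonsense-mediated decay models (3.36% ± 0.437).

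The share differed widely between genes, and 8 of 64 had over 50% of their TPM in retained-intron models in both libraries, against 12.6% of the 5736 detected protein-coding genes with such a model. Rps16 (chr7:28350652-28353155), a small-subunit protein near the decoding region, had 92.7% and 96.2%. Of its TPM, 13.6 in replicate 1 and 22.3 in replicate 2 went to the single model Rps16-203. Rpl37 had 78.4% and 80.3%, Rps20 78.2% and 74.9%, and Rpl5 75.9% and 84.0%. Rpl27a had 61.9% and 63.0%, Rps26 55.4% and 85.1%, Rpl10 55.1% and 53.9%, and Rpl15 51.7% and 53.0%. The 8 genes include both the highest gene of the family and genes of low level, and 7 of them, not Rpl15, were also over 50% in both FASTQ-derived tables. By share of expected counts, 12 of 64 were over 50% in both libraries, a count not taken over other genes. Of the 8 genes, only Rps20 (26.7% and 21.8%) and Rpl15 (25.5% and 21.6%) fell below 50% by that measure, so their shares were not settled.

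At the other end, 12 of the 64 had less than 10% in both libraries, against 14.8% of all detected protein-coding genes with such a model. Rps21 had 3.99% and 2.37% by alignment, and 7.98% and 7.42% by the FASTQ-derived estimate. Rps24 had 7.73% and 4.73%, against 16.2% and 4.74% FASTQ-derived. By share of expected counts Rps24 had 33.5% and 24.4%, so its low share held by TPM only, while Rps21 had 5.06% and 3.13%. Rps27l had 0% in both by alignment, but 24.6% and 39.8% FASTQ-derived, so its share was not settled. For 63 of the 80 detected genes the model with the highest TPM was protein-coding in both libraries, for 8 a retained-intron model and for 3, among them Rpsa and Rpl12, a nonsense-mediated decay model. The same model led in both libraries for 68 of 80. By the FASTQ-derived estimate, retained-intron models held 83.8% and 91.9% of the TPM of Rpl12, so its leading model was not settled. These counts of leading models were not taken over other genes, so they describe the family alone. The 25 genes with both a retained-intron model and a small nucleolar RNA (snoRNA) gene inside had median shares of 31.2% and 28.5%, against 17.5% and 14.0% for the 39 without such a gene. That split was chosen after the shares had been seen and was not tested.

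**Figure D3:**
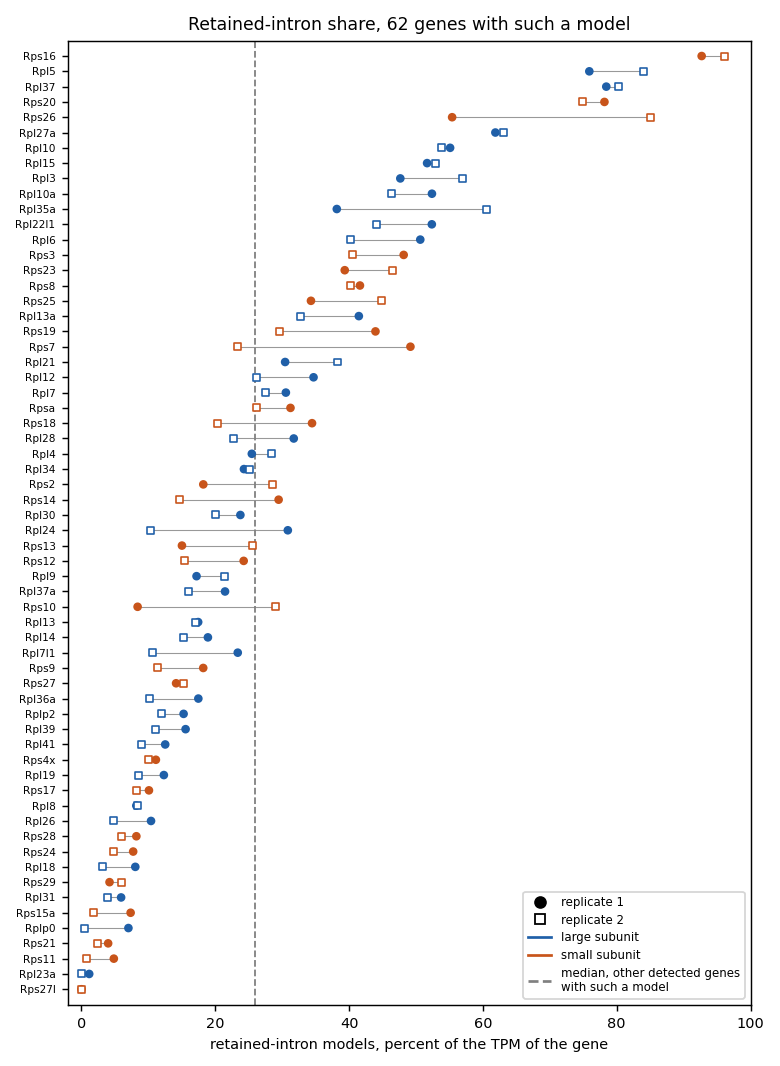
Percent of each gene's TPM in retained-intron models for 62 genes with such a model, with circles for replicate 1, squares for replicate 2 and colour for the subunit. The dashed line is the median of 5672 other detected genes. Rps16 is highest, at 92.7% and 96.2%, and the shares of Rps26 differ between the libraries (55.4% and 85.1%).

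Processed copies of these genes limit how firmly a read can be placed. A pseudogene model with at least 90% identity over at least 50% of the coding sequence was found for 79 of 83 genes, 1034 models in all, with a median of 9 per gene. Rpl7a had 83 copies, Rpl21 78, Rpl29 61, Rpl17 53 and Rps2 49. Of all 50-base stretches of the coding sequence, a median of 90.3% also occurred in a transcript of another gene. All of them did in 29 genes, and under 50% in 15 genes. Rpl3l and Rpl39l shared 0% and Rps3 8.09%. Introns and untranslated parts were not searched for shared stretches. Copies and shared stretches were sought for the ribosomal protein genes only, so no share over other genes can be given.

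A minor part of the reads was placed on the copies, and its size depended on the measure. The 1034 models summed to 4478 and 3982 expected counts, which was 12.2% and 11.0% (11.6% ± 0.868) of the reads on genes and copies together. The mean share was 19.8% by TPM, 19.4% by FASTQ-derived counts and 2.77% with copies matched by name alone. In both libraries 716 of the models had 0 counts and 59 had at least 10. Of these 59, 41 overlapped a detected protein-coding gene, 11 of them one on the same strand, while 184 of all 1034 models did so. Whether reads of the overlapping genes were counted on the copies was not tested.

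For a few genes the copies held as many reads as the gene. The copies of Rpl29 took 69.9% and 62.0% of the joint reads, with 4931440P22Rik the highest of them. This copy lies opposite to Tiparp. Those of Rpl27 took 65.3% and 60.9%. Rpl27 itself had 306 and 222 expected counts, against 526 and 306 for a single copy, Gm6341 (chr7:101154645-101155055). This copy lies on the opposite strand to the detected gene Fchsd2. The copies of Rpl36 took 50.3% and 50%, those of Rps2 46.4% and 38.6%, and those of Rpl5 36.7% and 47.9%. For Rpl5 the copy Gm15500 (chr7:114705217-114706235), whose sequence over the whole coding part is identical, had 233 and 386 expected counts and overlapped no detected gene. Only for Rpl27 and Rpl29 did the copies exceed the gene in both libraries.

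A second set of deposited values, estimated from the FASTQ files without the alignment, gave lower TPM for most of the family. The FASTQ-derived counts had larger totals, 26929533 and 33536257, so a lower TPM need not be a lower count. Rpl4 had 909 and 944 expected counts, against 1137 and 1506 FASTQ-derived counts. Rps12 had 578 and 640 expected counts, against 342 and 386 FASTQ-derived counts. The alignment-based minus FASTQ-derived difference in log2(TPM + 1) had a median of 1.10 in replicate 1 and 0.65 in replicate 2 for the ribosomal protein genes, against 0.67 and 0.39 for the other detected genes. Lower values in the FASTQ-derived table in both libraries were found for 70 of 83, against 79.3% of detected protein-coding genes. The order of the 77 core genes was largely kept (Spearman rho 0.835 between the mean levels).

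The largest difference was at Rps12, with 62.6 and 61.3 TPM by alignment and 9.33 and 8.04 TPM by the FASTQ-derived estimate. All of its 50-base stretches occur in other genes, and it has copies with an identical aligned sequence. Of these, Rps12-ps3 had 5.14 and 4.88 counts by alignment, against 283 and 279 FASTQ-derived counts. Rps12l1 had 0 and 68.6 counts by alignment, against 0 and 361. Rpl12 had 29.7 and 17.9 TPM by alignment, against 4.56 and 4.02 TPM, and its identical copy Gm10275 had 338 and 483 FASTQ-derived counts. Rpl10 had 121 and 71.0 TPM, against 35.9 and 24.2 TPM, and its identical copy Rpl10-ps3 had 394 and 650 FASTQ-derived counts. Rpl10a (1.21) and Rps16 (1.19) followed in the mean log2 difference. Rpl36, Rpl24 and Rpl35a went the other way, with mean log2 differences of -0.28, -0.25 and -0.19. The median difference was 0.91 over the 29 genes whose stretches are all shared and 0.77 over the 15 genes that share under 50%. Of the 4 genes without a matched copy, Rpl8 (0.90) also had a lower FASTQ-derived level, while Rpl3l and Rpl39l had almost no reads by either estimate.

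**Figure D4:**
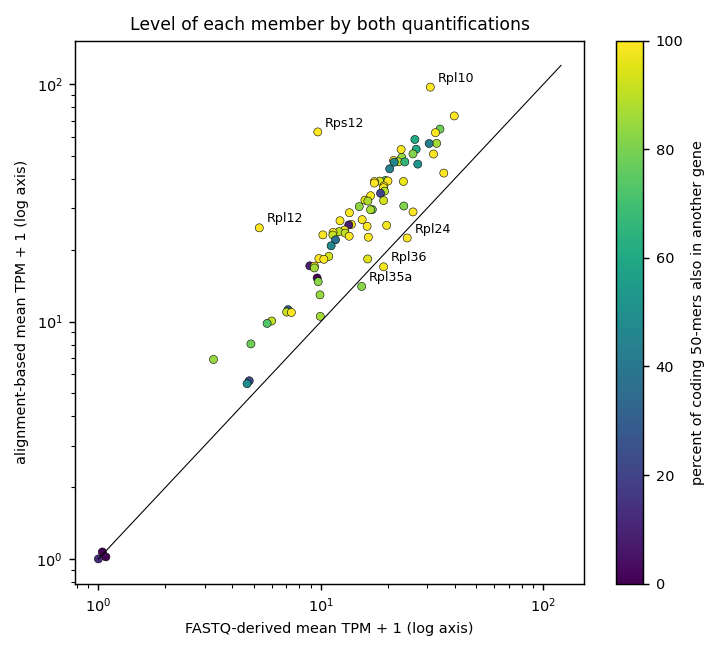
Alignment-based against FASTQ-derived mean TPM + 1 (log axes) of the 83 genes, coloured by the percent of coding 50-base stretches that also occur in another gene, with the line of equality. Rps12 and Rpl12, whose stretches are all shared, lie furthest above the line, and Rpl36, Rpl24 and Rpl35a lie below it.

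Inside 30 of the 83 genes lay 58 annotated snoRNA genes, which guide modification or processing of ribosomal RNA and are cut from the introns of their hosts. Other protein-coding genes were not searched for snoRNA genes inside them, so these numbers describe the family alone. Host genes had median levels of 33.0 and 25.8 TPM, against 28.4 and 20.9 TPM for genes without a snoRNA inside. Of the 58, 45 had 0 expected counts in both libraries, and for 36, none longer than 104 bases, the effective length was 0 in both libraries. A count of 0 for these is not a measurement of absence.

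At least 10 expected counts in both libraries were found for 3 snoRNA genes, each longer than the median snoRNA length of 91.5 bases. Snord15b and Snord15a, in introns of Rps3, are shown whole, since they carry most of these reads, with the annotated strand read 5′ to 3′ (mm10) and the box C (GTGATGA) and box D (CTGA) letters found by search in capitals.
Snord15b (chr7:99479563-99479707, minus strand): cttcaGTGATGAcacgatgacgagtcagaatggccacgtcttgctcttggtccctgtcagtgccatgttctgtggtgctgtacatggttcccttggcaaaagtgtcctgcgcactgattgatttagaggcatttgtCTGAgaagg
Snord15a (chr7:99482785-99482932, minus strand): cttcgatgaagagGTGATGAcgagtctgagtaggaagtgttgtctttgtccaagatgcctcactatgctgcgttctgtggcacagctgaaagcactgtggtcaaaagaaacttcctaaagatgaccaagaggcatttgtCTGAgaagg
Snord15b had 189 expected counts (replicate 1) and 23.8 (replicate 2), and Snord15a had 176 and 30. Gm26448, inside Rpsa, had 139 and 15. Their host genes did not show such a gap, with 613 and 666 expected counts for Rps3 and 671 and 768 for Rpsa. All 58 together had 558 and 72.0 expected counts by alignment and 1144 and 631 by the FASTQ-derived estimate. The FASTQ-derived table had 18 of the 58 with at least 10 counts in both libraries. Effective lengths were also shorter in replicate 2 (4.46 and 2.19 bases for Snord15b), and the part of fragment length in the gap was not tested.

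Between the replicates, the family had a median ratio close to 0, while single genes differed. After scaling for library size and composition, the log2 ratio of replicate 1 over replicate 2 had a median of -0.036 over 80 ribosomal protein genes (SD over genes 0.405), against -0.017 over 11261 other protein-coding genes (SD 0.49). Of the 80, 38 were higher in replicate 1, and over all protein-coding genes 52.2% had a ratio below 0. By TPM, in contrast, 73 of 83 (88.0%) were higher in replicate 1, and so were 91.8% of the other detected genes. Among the 75 genes with a mean of at least 100 counts, the median absolute log2 ratio was 0.23, against 0.18 in 5565 other genes within the range of counts of the family. TPM ranks agreed less well between the replicates in the family (Spearman rho 0.883) than over the other detected genes (0.973), whose levels also span a wider range.

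An absolute log2 ratio of at least 1 was found for 2 of 75 genes (2.67%), against 0.602% of all 7647 protein-coding genes with at least 100 counts. Rps24 had 680 counts in replicate 1, against 1308 in replicate 2 (log2 ratio -1.04). Most of the excess in replicate 2 stood in its main protein-coding models, with 166 and 410 counts for Rps24-201 and 236 and 531 for Rps24-210, while the retained-intron models Rps24-204 and Rps24-212 had 126 and 208, and 102 and 111. Rps21 (chr2:180257377-180258445) had 288 counts in replicate 1 and 105 in replicate 2 (log2 ratio 1.35), of which Rps21-201 held 273 and 102. The FASTQ-derived TPM of both genes kept these directions, with 18.8 and 47.7 TPM for Rps24 and 25.4 and 15.3 TPM for Rps21.

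Among the other genes with low ratios, Rps16 had 151 counts in replicate 1 and 237 in replicate 2 (log2 ratio -0.75), Rpl28 had 218 and 341 (-0.74) and Rpl41 366 and 572 (-0.74). Among genes with a mean of at least 100 counts, the highest ratios after Rps21 were those of Rps29 with 195 and 110 (0.73), Rpl24 with 249 and 145 (0.68), Rps27 with 210 and 125 (0.65) and Rpl22l1 with 131 and 79 (0.63). The credibility intervals of TPM did not overlap between the replicates for 38 of 83 genes, against 50.1% of all detected protein-coding genes. With 2 libraries no test of these differences was made.

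**Figure D5:**
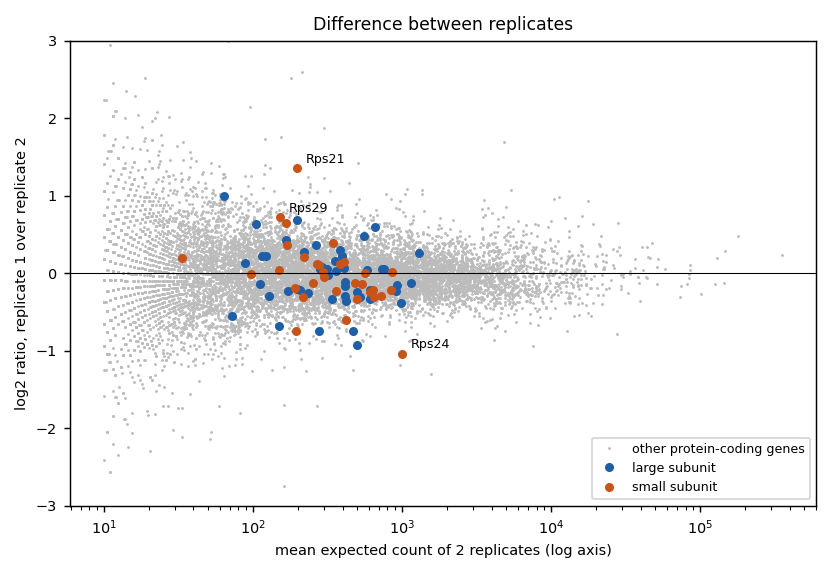
Log2 ratio of replicate 1 over replicate 2 after scaling, against the mean expected count (log axis), for 80 ribosomal protein genes by subunit and for other protein-coding genes in grey. Of the grey genes, 17 lie outside the drawn range of -3 to 3. Rps21 (1.35) and Rps24 (-1.04) stand furthest from 0 among the ribosomal protein genes with at least 100 counts.

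Several of the genes share their ground with another transcribed gene. For 15 of 83, a gene with at least 10 expected counts in both libraries overlapped on the opposite strand. Such overlaps were not counted over other genes, so the number does not set the family apart. Rps14 (460 and 543 counts) was overlapped over 1553 bases by the most abundant of them, Ndst1 (2883 and 2610 counts). Rpl3 (888 and 1079 counts) was overlapped over 535 bases by Syngr1 (1021 and 676 counts). The strand setting of the counting is not given in the sources used here, so reads of such pairs may not be told apart. On the same strand, Rpl13 (387 and 324 counts) lies within 2895 shared bases of the model Gm20388 (300 and 591 counts), and the levels of both are uncertain.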

How the data were processed

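Nucleoplasmic RNA of 2 libraries in 1 group was quantified by the authors. The tables use genome build mm10 and GENCODE M21, per the labels in the deposited notes. The programs, and whether strand was used, are not stated there. Counts in the deposited alignment-based tables are expected counts, and those derived from FASTQ files are estimated counts. TPM and FPKM were deposited by the authors, corrected for effective length. The bounds of the authors' credibility interval, treated as a score, were deposited beside them. In the deposited tables, purely numeric identifiers and spike-in sequences were left out.

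The ribosomal protein genes and the other gene lists were chosen with earlier results of these data known, so they are described and not tested. Genes at 1 TPM or more in each replicate were called detected. Values are means ± SD (n = 2), on the log2 scale with a pseudocount of 1. Replicate ratios used TMM factors from edgeR 4.0.16 (R 4.3.3) on expected counts rounded to whole numbers, with a mean of at least 10 and a prior count of 0.5. The ratio step was tested on simulated data. DESeq2 1.42.0 size factors were an alternative. Pseudogene copies, annotated as pseudogenes or named with -ps, were found with blastn (BLAST+ 2.17.0) at 90% identity over 50% of the coding sequence. Promoters and RefSeq starts came from a RefSeq table for GRCm38.p6, the build of mm10, and 20 genes without an entry were not searched. The Yy1 motif was shortened to its core after a longer form had been searched. Figures and tables were made in Python 3.11.15.

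Some genes are not reported here by name. Genes named are the 10 highest and 10 lowest, the paralogue pairs, the 5 extreme ratios in each direction, those over 50% retained intron, the largest quantification and pseudogene differences, snoRNA hosts, and the 2 highest and 2 lowest of each other list. Other genes, chosen for their known role or after their values were seen, are Rplp2, Rpl5, Rpl11, Rpsa, Rps6, Rps3, Gabpa, Yy1 and the genes at overlaps. Totals were 19630046 and 18434601 expected counts in the deposited tables. Limits on a count of 0 are 3 counts per library. These limits cover counting error only, while the credibility intervals cover counting and read assignment within a library. Without molecular identifiers, reads are not separate molecules.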

Additional observations from a re-analysis of the deposited data

How the results depend on the processing

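Detection moved little, with 77 to 80 genes under the other thresholds. The gap to the detected protein-coding median, 1.69, was 1.81 with a pseudocount of 0.1, 1.72 with FPKM, 1.60 with posterior mean TPM, 4.35 against all protein-coding genes, 1.35 with FASTQ-derived TPM and 1.72 over detected ribosomal protein genes. It was 1.67 to 1.71 when either replicate was left out. The difference between large and small subunit (-0.0083) became 0.038 without the 6 paralogues and ran from -0.095 to 0.078 when either replicate was left out, so no order can be given. The median replicate ratio (-0.036) was 0.37 on TPM + 1, where the other detected genes had 0.41. It was negative under the other scalings. The retained-intron share (20.3%) was 24.2% by counts, 24.7% by FASTQ-derived TPM, 25.4% over genes with such a model, and 18.8% to 21.9% when either replicate was left out. The pseudogene share (11.6%) was 2.77% with copies matched by name, 19.8% by TPM, 19.4% by FASTQ-derived counts, and 11.0% to 12.2% when either replicate was left out. The quantification difference (0.88) was 0.35 over the 4 genes without a matched copy, of which Rpl3l and Rpl39l have almost no reads, and 0.65 to 1.10 when either replicate was left out. By FASTQ-derived TPM the log2 difference to the partner was -4.93 for Rpl10l (-6.55 by alignment), -3.87 for Rpl3l (-4.99) and -1.84 for Rpl7l1 (-2.42). With a pseudocount of 0.1 it was -9.86 for Rpl10l, -8.06 for Rpl3l and -5.93 for Rpl39l (-3.28). The snoRNA genes with at least 10 counts numbered 18 in the FASTQ-derived tables and 3 by alignment. Genes with a pyrimidine run (13 by RefSeq) were 10 with at least 6 pyrimidines after the C. By GENCODE, a choice made after seeing the data, they were 9 and 5. For these moves the cause was not tested.

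No paired analysis was possible because both libraries belong to 1 group. Depth limits Rpl3l, Rpl10l and Rpl39l, with at most 1 expected count in a library.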
